A study of Mus musculus with 8 samples.

Results

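The genes described here encode collagens and other proteins of the extracellular matrix, measured as RNA in hearts of wild-type (WT) and TAZG197V mice. The members were every gene whose mouse symbol starts with Col, a number, the letter a and a number, together with 18 named matrix genes from Fn1 to Bgn. Of 63 genes named in this way, 51 reached a mean raw count of 20 over the libraries, out of 55471 gene rows. Col4a3bp is among these by its symbol only, since it encodes a ceramide transfer protein. It did not pass the test (log2 fold change -0.07, adjusted p = 0.424) and is left aside, so that 50 members remain, 32 collagen genes and 18 others. The 12 collagen genes under the minimum, among them Col2a1, Col9a1, Col10a1 and Col11a1, had mean counts of 0.375 to 12.5.

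Collagens are built from chains that wind around each other into a triple helix. Fibrillar collagens such as types I and III give the tissue its tensile strength, whereas type IV forms the sheet-like network of the basement membrane that surrounds each cardiomyocyte and underlies the endothelium. In the heart, fibroblasts make most of the fibrillar matrix, lysyl oxidases cross-link it, proteoglycans such as decorin coat the fibrils, and matrix metalloproteinases and their inhibitors set its turnover. Fibrosis, the build-up of this matrix, is a common feature of cardiomyopathies.

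RNA was taken from a small piece of heart (region not given) of 4 WT and 4 TAZG197V mice, 14 weeks old and untreated. TAZG197V mice carry a patient mutation in the X-linked gene Taz in every cell, introduced by CRISPR/Cas9 in C57BL/6N embryos, with founders then crossed to C57BL6/J for 2 generations. Taz encodes Tafazzin, the enzyme that remodels the mitochondrial lipid cardiolipin, and its loss causes Barth syndrome, a disorder of several organs in which cardiomyopathy is prominent. The mutant animals of the study were hemizygous males, while its breeding protocol, in the methods and the labels, speaks of homozygous offspring. Total RNA was made into TruSeq libraries and sequenced as 50-base single-end reads. No source used here says whether the mice came from separate litters, so p-values measure the spread between these 8 samples. Levels are CPM, that is counts scaled to a common library size by the TMM method, and errors of levels are SDs over 4 libraries.

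Library totals ran from 23055689 to 36301031 counts. Taz itself was at 58.7 to 63.8 CPM in the WT and 44.3 to 50.4 CPM in the TAZG197V libraries, and since the edit changes 1 base, its level does not check the labels. WT 2 stood apart from the other WT libraries in markers of other parts of the heart. Its summed atrial markers reached 1075 CPM against 16.5 to 125 in the other WT libraries, and its valve and cartilage-like markers 93.5 against 21.8 to 31.4. WT 4 carried 55072 CPM of red cell markers against 346 to 1065 in the other WT libraries. Summed brain markers were high in both number 4 libraries, at 173 CPM in WT 4 and 272 CPM in TAZG197V 4. The fit contained 2 surrogate variables, estimated from the counts with svaseq, of which 1 took its most extreme value in WT 2 (-0.845 against -0.163 to 0.37 elsewhere) and 1 in the number 4 libraries (-0.469 and -0.722). Libraries 1 and 2 of each genotype were run in lane 7 and libraries 3 and 4 in lane 8. The lanes were read from the names under which the counts were deposited.

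To find which matrix transcripts differed between the genotypes, all 15084 genes with sufficient counts were tested together, and a gene was called when its adjusted p was under 0.05, its log2 fold change beyond 0.20 in either direction and its mean scaled count at least 50. Of the 50 members, 1 was called higher in TAZG197V hearts, the basement membrane collagen Col4a5, against 18.5% of all genes. Another 8 of 50 were called lower, against 15.1% of all genes, namely Col1a2, Col27a1, Col6a2, Col6a6, Col12a1, Loxl1, Timp2 and Dcn. Col22a1 and Col13a1 passed the adjusted p alone, which made 10 members lower by that rule against 17.4% of all genes. The share called lower was thus near the background. The fitted fold change was below 0 in 42 of 50 members, against 51.2% of all genes, and its median was -0.25, where the median of all genes was -0.01. In 4 members (Col6a6, Col22a1, Timp2 and Dcn) the highest TAZG197V library was lower than the lowest WT library, against 13.9% of all genes, and in 0 members the reverse was true, against 19.3%.

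The size of this shift depended on the libraries compared. WT 2 was the highest of the 8 libraries in 35 of 50 members, against 12.7% of all genes, and TAZG197V 3 was the highest TAZG197V library in 31 of 50, against 22.3%. Within lane 7, which holds WT 2, mean levels were lower in TAZG197V for 44 of 50 members, with a median log2 ratio of -0.68. With WT 2 set aside, lane 7 gave 43 of 50 and a median of -0.43, from 1 WT library. Within lane 8, which holds TAZG197V 3, 26 of 50 were lower, with a median of -0.01. With TAZG197V 3 set aside, a comparison chosen after seeing the data, lane 8 gave 33 of 50 and a median of -0.21, from 1 TAZG197V library. Over all genes, 50.2% were lower in TAZG197V within lane 7 and 49.4% within lane 8. The lower matrix levels of TAZG197V hearts were thus seen in lane 7 with or without WT 2, and in lane 8 the median was near 0 with TAZG197V 3 and below 0 without it. In the fit of all libraries but WT 2, 5 members were called lower and 3 higher, against 2406 and 2836 of 15136 genes. Leaving out TAZG197V 3 instead gave 19 lower and 1 higher, against 2056 and 2679 of 15238 genes. Among the 19 were Col1a1, Col3a1, Col5a1, Col5a2, Col6a1, Col6a3, Fn1, Fbn1, Lox and Mmp14. Col6a3 was also called without WT 3. Without surrogate variables 5 members were called lower and 0 higher, against 1782 and 2410 of 15084 genes. With 1 surrogate variable 9 members were called lower and 0 higher, against 2076 and 2694 genes. The surrogate variables were estimated again in each fit, and their number fell from 2 to 1 without WT 4, without TAZG197V 4 and without both, so that these 3 fits changed the libraries and the covariates together. They gave 11, 7 and 14 members lower and 0, 0 and 1 higher. Over all genes they gave 2145 lower and 2671 higher of 15400, 2127 and 2655 of 15460, and 2360 and 2833 of 15232. With 2 surrogate variables kept, which was chosen after seeing the data, the counts of members were 11, 8 and 2 lower and 2, 1 and 2 higher. Values without a number 4 library are from fits with 1 surrogate variable unless 2 are named.

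**Figure D1:**
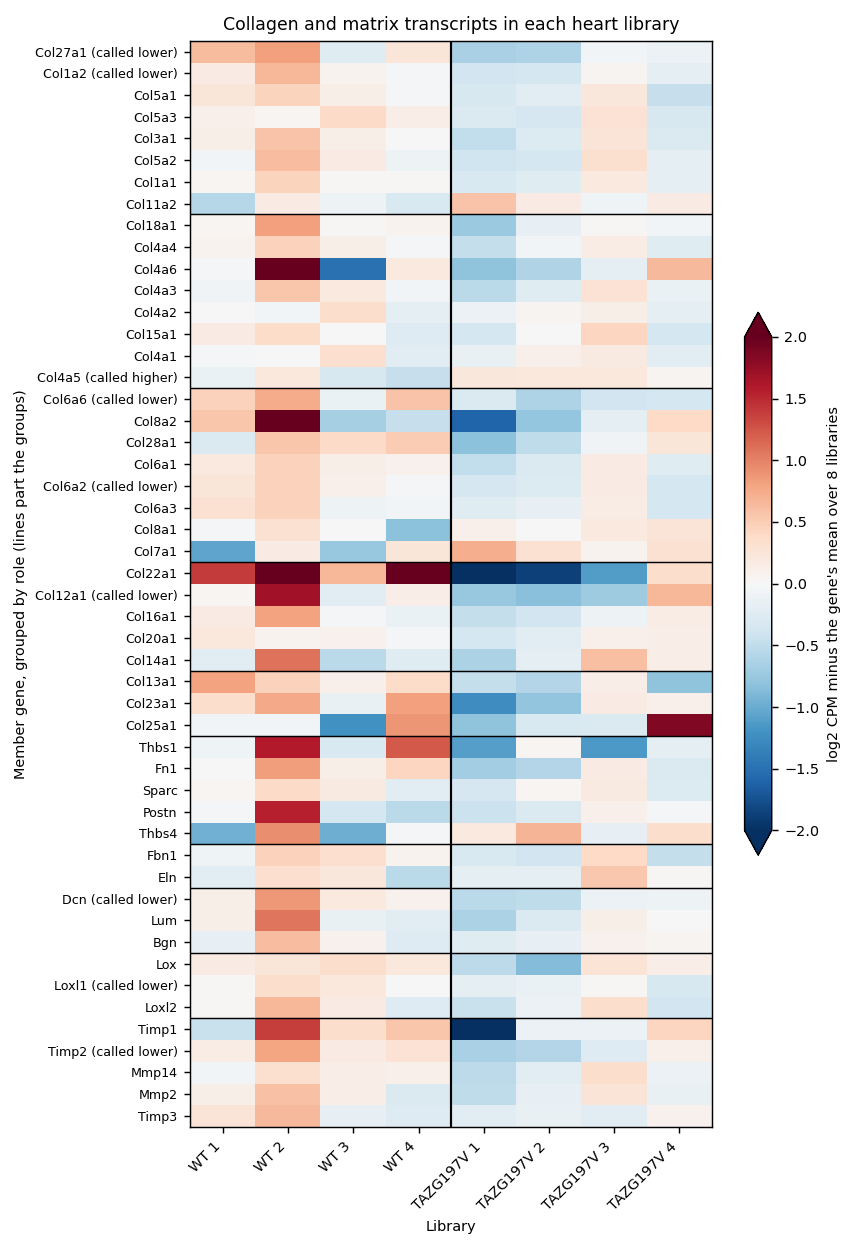
Heat map of the 50 members (rows, grouped by role) in the 8 libraries (columns), coloured by log2 CPM minus the mean of that gene over all libraries, with the scale ending at 2 in each direction. WT 2 was the highest library in 35 of 50 members, and TAZG197V 1 and TAZG197V 2 are mostly blue, whereas TAZG197V 3 lies near the WT libraries.

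Per kilobase of exon, decorin was the most abundant member in WT hearts, at 110.4 ± 31.6 CPM per kb. Sparc, a collagen-binding glycoprotein, followed at 89.6 ± 15.6 and did not differ from decorin beyond the spread. By this measure the type IV chains Col4a1 (66.7 ± 11) and Col4a2 (55.4 ± 9.34) were above the fibrillar chains Col3a1 (30.7 ± 5.76), Col1a1 (16.4 ± 2.55) and Col1a2 (13.2 ± 3.12). The length used was that of all annotated exons of a gene merged. It was 9816 bases for Col3a1 and 12426 for Col1a2, against 7464 for Col4a1, 6619 for Col4a2 and 6563 for Col1a1. A merged length can exceed that of 1 transcript, so the order of these chains depends on it. Biglycan stood at 41.8 ± 12.3, Timp2 at 33.9 ± 7.84 and lumican at 30.6 ± 14.4 CPM per kb, and these neighbours overlapped in their SDs. In all, the 50 members took up 4201 ± 774 CPM in WT and 3421 ± 455 CPM in TAZG197V hearts. The summed level was 3868, 5294, 4140.0 and 3504 CPM in WT 1 to 4 and 2978, 3317, 4057 and 3331 in TAZG197V 1 to 4. The ranges overlapped, because TAZG197V 3 lay above WT 1 and WT 4.

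Among the 8 fibrillar collagens, Col1a2 and Col27a1 were called lower and none was called higher. Col1a2, the second chain of type I collagen (chromosome 6, 4504814 to 4541544, GRCm38, the assembly of mm10), was at 156, 221, 145 and 136 CPM in WT and 107, 109, 144 and 121 CPM in TAZG197V libraries. Only TAZG197V 3 reached into the WT range. The log2 fold change of Col1a2 was -0.35 (SE 0.104, adjusted p = 0.0283). Its partner chain Col1a1 was not called, at 108 ± 16.7 CPM in WT and 89.7 ± 15.2 in TAZG197V (-0.21, adjusted p = 0.197). Col3a1, the type III chain of reticular fibres, was at 281, 385, 281 and 259 CPM in WT and 185, 215, 312 and 213 CPM in TAZG197V. TAZG197V 3 lay above 3 WT libraries while the other TAZG197V libraries lay below every WT library, and Col3a1 did not pass (-0.32, adjusted p = 0.139). It passed without TAZG197V 3 (-0.45, adjusted p = 0.00584).

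The remaining fibrillar chains were less abundant. Col27a1 (chromosome 4, 63214004 to 63334991), a chain of thin cartilage-type fibrils, changed from 6.02 ± 1.84 to 3.58 ± 0.782 CPM (log2 fold change -0.64, SE 0.209, adjusted p = 0.0417). The type V chains, which nucleate type I fibrils, did not pass the test. Col5a1 stood at 56.8 ± 8.11 and 43.7 ± 9.69 CPM (adjusted p = 0.056), and Col5a2 at 49.8 ± 12.3 and 40.3 ± 10 CPM (adjusted p = 0.343). Summed over the 8 genes, fibrillar collagens were at 685, 922, 679.8 and 631 CPM in WT and 480.3, 517, 731 and 531 CPM in TAZG197V. TAZG197V 3 exceeded 3 of the 4 WT libraries, while the other TAZG197V libraries lay below all of them. Neither Col1a2 nor Col27a1 kept its call in every set of libraries. Col1a2 lost it without WT 1, WT 2, TAZG197V 1 or TAZG197V 2 (adjusted p of 0.0718, 0.112, 0.107 and 0.138). Col27a1 lost it without the same libraries (0.163, 0.132, 0.145 and 0.171), and neither was called without surrogate variables (0.0624 and 0.0504).

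Of the 8 basement membrane collagens, Col4a5 was called higher and none was called lower. Their summed level was 1069 ± 148 CPM in WT and 1032 ± 129 in TAZG197V hearts, 895 to 1255 against 906 to 1181 CPM, so that the ranges overlapped almost fully. Col4a1 had 478, 483, 612 and 418 CPM in WT hearts and 440.2, 521, 550.1 and 420.4 in TAZG197V (log2 fold change -0.05, adjusted p = 0.744). Col4a2, its partner in the common type IV trimer, was at 367 ± 61.9 and 348 ± 35 CPM (-0.08, adjusted p = 0.509). Both fitted values turned to the other side of 0 without WT 3 (0.06 and 0.03). Of the multiplexin collagens, which link the basement membrane to the matrix around it, Col15a1 was at 108 ± 19.9 and 100 ± 27.3 CPM (-0.07, adjusted p = 0.748). Col18a1, the source of endostatin, was at 13.4 ± 4.07 and 9.55 ± 2.06 CPM (-0.36, adjusted p = 0.133).

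Col4a5 was the only member called higher. This X-linked chain (X, 141475385 to 141689234), which is mutated in Alport syndrome, was at 57.1, 72.4, 50.1 and 45.4 CPM in WT and 72.9, 72.5, 72.3 and 64.8 CPM in TAZG197V. WT 2 lay within the TAZG197V range, and the other WT libraries lay below all 4 TAZG197V libraries. The log2 fold change was 0.41 (SE 0.0539, adjusted p = 0.000669). The call was lost without surrogate variables (0.33, adjusted p = 0.0935) and with 1 of them (0.33, adjusted p = 0.0596). It was also lost without WT 4 (0.24, adjusted p = 0.145) or TAZG197V 4 (0.29, adjusted p = 0.0833), where 1 surrogate variable was fitted. With 2 surrogate variables it held without WT 4 (0.29, adjusted p = 0.00537) and without TAZG197V 4 (0.35, adjusted p = 0.0166). Without both number 4 libraries it held with 1 surrogate variable (0.28, adjusted p = 0.00644) and with 2 (0.54, adjusted p = 0.00801). Col4a5 was also called with sequencing lane or a replicate block in place of surrogate variables. Within the lanes its log2 ratio was 0.17 in lane 7 and 0.52 in lane 8.

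The type IV genes lie in pairs that are transcribed away from each other. The annotated starts of Col4a1 and Col4a2 overlap by 21 bases, those of Col4a3 and Col4a4 are 72 bases apart, and those of Col4a5 and Col4a6 are 1309 bases apart. Col4a3 and Col4a4 were not called (adjusted p of 0.357 and 0.164). Nor was Col4a6, which had 1.62, 7.83, 0.583 and 1.88 CPM in WT and 0.945, 1.08, 1.45 and 2.57 in TAZG197V (-0.25, adjusted p = 0.582). The value of Col4a6 had no stable direction, from -1.51 without TAZG197V 4 to 0.15 without WT 2. Without both number 4 libraries it was called lower with 1 surrogate variable (-0.84, adjusted p = 0.0492) and stood at 0.99 with 2 (adjusted p = 0.133). These starts are those of GENCODE. RefSeq places the start of Col4a6 at the same base and that of Col4a5 34 bases further into the gene, so its window of 250 bases before the start reaches into a GENCODE exon and is shown without those 34 bases. The stretches before Col4a5 (chrX:141475169-141475384, plus strand) and Col4a6 (chrX:141474077-141474326, minus strand) are given because this pair had 1 called and 1 uncalled member. Capitals mark matches on either strand to the GC box GGGCGG and the CCAAT box, and no TATAAA was found in either stretch.
Col4a5: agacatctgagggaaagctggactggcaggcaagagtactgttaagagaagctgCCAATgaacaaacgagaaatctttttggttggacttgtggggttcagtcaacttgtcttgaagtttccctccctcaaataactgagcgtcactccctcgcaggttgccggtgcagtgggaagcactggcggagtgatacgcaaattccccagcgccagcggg
Col4a6: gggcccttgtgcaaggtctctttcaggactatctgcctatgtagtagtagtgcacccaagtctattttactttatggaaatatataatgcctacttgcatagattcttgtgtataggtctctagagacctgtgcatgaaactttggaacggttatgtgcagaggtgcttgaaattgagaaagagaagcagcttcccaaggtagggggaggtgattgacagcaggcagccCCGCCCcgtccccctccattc
The stretches do not overlap. Col4a5 holds 1 CCAAT box and no GC box here, and Col4a6 holds 1 GC box and no CCAAT box.

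Of the 8 beaded filament and network collagens, Col6a2 and Col6a6 were called lower. Type VI collagen forms beaded filaments around cells from chains encoded by Col6a1, Col6a2 and a longer partner. Col6a6 (chromosome 9, 105687809 to 105828160), an alternative to the longer chain of Col6a3, was at 15.8, 19.1, 10.5 and 17 CPM in WT and 9.41, 7.45, 8.84 and 9.02 CPM in TAZG197V. Every TAZG197V library lay below every WT library. The log2 fold change of Col6a6 was -0.78 (SE 0.15, adjusted p = 0.00449), and it stayed between -0.96 and -0.68 and below an adjusted p of 0.05 in 17 of 17 alternative fits. It was not called without both number 4 libraries when 2 surrogate variables were kept (-0.30, adjusted p = 0.25). Within the lanes Col6a6 had log2 ratios of -1.05 and -0.62.

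The main type VI chains were more abundant. Col6a2 (chromosome 10, 76595762 to 76623630) had 105, 121, 95.3 and 87.1 CPM in WT hearts and 69.8, 73.3, 99.5 and 69.3 in TAZG197V (-0.34, SE 0.113, adjusted p = 0.0432). TAZG197V 3 again lay inside the WT range. This call was lost without WT 1, WT 2, TAZG197V 1, TAZG197V 2 or TAZG197V 4, with adjusted p of 0.118, 0.094, 0.124, 0.153 and 0.0697, and without surrogate variables (0.0664). Col6a1 did not pass (105 ± 13 and 78.6 ± 15.8 CPM, -0.37, adjusted p = 0.0566). Col6a3 was at 50.7 ± 9.57 and 41 ± 6.38 CPM (-0.25, adjusted p = 0.115). Col8a1, a short-chain collagen of vessels, stood at 27.9 ± 8.17 and 32.5 ± 2.49 CPM (0.35, adjusted p = 0.0624). It passed without WT 2 (0.52, adjusted p = 0.0147) or WT 3 (0.43, adjusted p = 0.0346), whereas its log2 fold change was 0.02 without WT 4 (adjusted p = 0.862) and 0.05 without TAZG197V 4 (adjusted p = 0.738), or 0.06 and 0.12 with 2 surrogate variables (adjusted p of 0.58 and 0.382).

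Of the fibril-associated collagens, which sit on the surface of fibrils, Col12a1 was called lower and Col22a1 passed the adjusted p but not the count minimum. Col12a1 (chromosome 9, 79598991 to 79718831) had 1.89, 5.91, 1.59 and 2.01 CPM in WT hearts and 1.09, 1.03, 1.13 and 2.93 in TAZG197V. WT 2 and TAZG197V 4 each lay far above the rest of their genotype. The log2 fold change of Col12a1 was -0.60 (SE 0.165, adjusted p = 0.0223), and it became -0.25 (adjusted p = 0.322) without WT 2 and -1.53 (adjusted p = 0.0374) without TAZG197V 4, or -1.31 there with 2 surrogate variables (adjusted p = 0.0333). It also lost its call without WT 1, TAZG197V 1, TAZG197V 2 or TAZG197V 3 (0.133, 0.152, 0.197 and 0.139) and without surrogate variables (0.219). Col22a1 (chromosome 15, 71795795 to 72034227), known from tissue junctions of muscle, had 38, 76, 20 and 52 counts in WT and 1, 5, 7 and 17 counts in TAZG197V libraries. No TAZG197V library reached the WT range, and the fit gave -2.80 (SE 0.355, adjusted p = 0.000598). Col22a1 passed the adjusted p in 17 of 17 alternative fits, and its mean scaled count of 27.5 limits the precision of its fold change.

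Among the transmembrane collagens none was called. Col13a1, a collagen of cell adhesions and the neuromuscular junction, was at 1.94 ± 0.397 and 1.08 ± 0.325 CPM, and passed the adjusted p alone (-0.86, adjusted p = 0.0304) with a mean scaled count of 44.3. It no longer passed without WT 1, TAZG197V 1, TAZG197V 2 or TAZG197V 4 (adjusted p of 0.114, 0.0836, 0.0969 and 0.06).

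**Figure D2:**
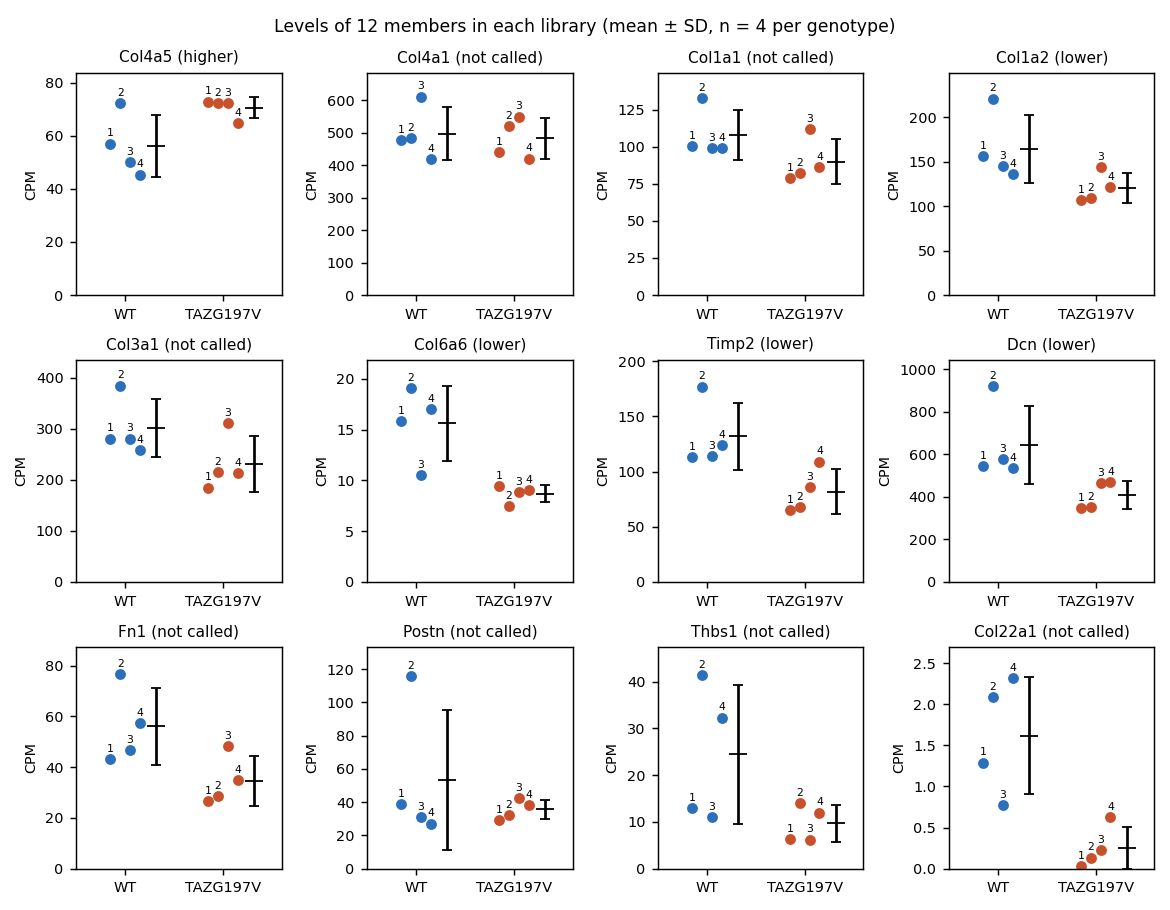
CPM of 12 members in each library (points, numbered by library, WT blue and TAZG197V orange) with the mean ± SD of each genotype beside them, each panel from 0. The genotypes do not overlap for Col6a6, Timp2, Dcn and Col22a1, whereas the means of Postn and Thbs1 in WT rest on 1 or 2 high libraries.

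None of the 5 matrix glycoproteins was called. Fibronectin (Fn1), the scaffold on which collagen fibrils assemble, was at 43.3, 76.8, 46.6 and 57.5 CPM in WT and 26.5, 28.6, 48.2 and 34.9 CPM in TAZG197V. Again TAZG197V 3 alone reached into the WT range, and the test was just missed (-0.62, adjusted p = 0.0546). Fn1 passed without surrogate variables (-0.70, adjusted p = 0.0475), without WT 2 (0.0354) and without TAZG197V 3 (0.00176). Periostin (Postn), a matricellular protein of activated fibroblasts and valves, was at 39, 116, 31 and 27.2 CPM in WT and 29.3, 32.4, 42.6 and 38.4 CPM in TAZG197V. Apart from WT 2 the genotypes shared 1 range, and the log2 fold change of Postn moved from -0.08 (adjusted p = 0.68) to 0.20 (adjusted p = 0.369) without that library.

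Both thrombospondins missed the test, on opposite sides of 0. Thbs1, a stress-induced activator of TGF-beta, had 13, 41.3, 11.1 and 32.3 CPM in WT hearts and 6.39, 14.1, 6.23 and 12 in TAZG197V (-1.09, adjusted p = 0.0663). It passed without TAZG197V 2 (-1.34, adjusted p = 0.0152) or WT 3 (-1.36, adjusted p = 0.035). It also passed with 1 surrogate variable (-1.32, adjusted p = 0.049), with the replicate number as a block, and with no low-count filter. Without TAZG197V 4 it passed when 2 surrogate variables were kept (-1.21, adjusted p = 0.0413). Without both number 4 libraries it passed with 1 surrogate variable (-1.09, adjusted p = 0.0248) and not with 2 (-0.30, adjusted p = 0.66). Thbs4 was at 6.6 ± 4.43 and 8.37 ± 2.03 CPM (0.65, adjusted p = 0.148). It passed without WT 2 (0.89, adjusted p = 0.023), and its log2 fold change ran from 0.29 to 0.90 when 1 library was left out. With 2 surrogate variables kept, Thbs4 also passed without WT 4 (0.77, adjusted p = 0.0233) and without both number 4 libraries (1.26, adjusted p = 0.0421). Sparc stood at 339 ± 59.1 and 296 ± 51.5 CPM (-0.14, adjusted p = 0.341).

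Neither elastic fibre gene was called. Fibrillin-1 (Fbn1), the core of microfibrils, was at 109.6 ± 18.6 and 85.4 ± 26.7 CPM (-0.35, adjusted p = 0.181). Elastin (Eln) was at 55.6 ± 15.1 and 59.1 ± 15.2 CPM (0.18, adjusted p = 0.496), and its fitted value was -0.05 without WT 4. Because 20.1% of the exon bases of Fbn1 and 21.3% of those of Timp3 overlap another annotated gene and the strand setting of the counting is not known here, the counts of both genes are uncertain.

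Of the small leucine-rich proteoglycans, which bind and space collagen fibrils, decorin was called lower. Dcn (chromosome 10, 97479609 to 97518143) was at 544, 920.2, 577 and 536 CPM in WT and 348, 353, 466 and 468 CPM in TAZG197V. Every TAZG197V library lay below every WT library. The log2 fold change of Dcn was -0.54 (SE 0.121, adjusted p = 0.00907), and it was -0.43 (adjusted p = 0.0344) without WT 2. The call held in 15 of 17 alternative fits, and was lost without TAZG197V 2 (-0.42, adjusted p = 0.0569) and with the replicate number as a block (-0.63, adjusted p = 0.0517). Lumican was at 74.8 ± 35.3 and 53.9 ± 11.9 CPM (-0.23, adjusted p = 0.28). Biglycan was at 255 ± 74.8 and 227 ± 25 CPM (-0.05, adjusted p = 0.747), and its fitted value was 0.07 without WT 2.

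Loxl1 was called lower among the lysyl oxidases, the copper enzymes that cross-link collagen and elastin. Loxl1 (chromosome 9, 58287738 to 58313186) had 38.3, 47.8, 43.8 and 38 CPM in WT hearts and 33.2, 34.4, 38.4 and 30.2 in TAZG197V. The genotypes met only where TAZG197V 3 passed WT 1 and WT 4. Its log2 fold change was -0.28 (SE 0.0771, adjusted p = 0.0224), and the call was lost without WT 3, TAZG197V 1, TAZG197V 2 or TAZG197V 4 (adjusted p of 0.0513, 0.0714, 0.0835 and 0.0531). Lox was at 6.4 ± 0.367 and 4.79 ± 1.71 CPM (-0.43, adjusted p = 0.194), and Loxl2 at 17 ± 4.81 and 13.8 ± 3.66 CPM (-0.20, adjusted p = 0.358).

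Among the proteases and their inhibitors only Timp2 was called. Timp2, an inhibitor of metalloproteinases that also takes part in the activation of pro-MMP2 by MMP14, lies on chromosome 11 (118301069 to 118355740). It was at 113, 177, 114 and 124 CPM in WT and 65.2, 67.9, 85.6 and 109 CPM in TAZG197V. The groups did not overlap, though TAZG197V 4 came close to WT 1. The log2 fold change of Timp2 was -0.61 (SE 0.109, adjusted p = 0.00301), with a range of -0.88 to -0.49 over 17 alternative fits, in all of which it passed the adjusted p. Its log2 ratio was -1.12 in lane 7 and -0.29 in lane 8, or -0.13 in lane 8 without TAZG197V 3. Of the other members called lower, Dcn had ratios of -1.06 and -0.25 and Loxl1 of -0.35 and -0.26. In lane 8 without TAZG197V 3 they were at -0.25 and -0.44. Col1a2 (-0.81 and -0.08), Col27a1 (-1.36 and -0.10), Col6a2 (-0.66 and -0.11) and Col12a1 (-1.88 and 0.17) were near 0 or reversed in lane 8, and stood there at -0.21, -0.14, -0.40 and 0.70 without TAZG197V 3. With sequencing lane as the covariate in place of surrogate variables, Col1a2, Col27a1, Col6a2, Col12a1 and Loxl1 lost their calls (adjusted p of 0.082, 0.0719, 0.0849, 0.283 and 0.0574).

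The other genes of this group did not pass. Mmp2, which degrades denatured collagen and type IV collagen, was at 59 ± 14.8 and 48.4 ± 10.6 CPM (-0.18, adjusted p = 0.377). Mmp14 was at 15.3 ± 1.62 and 13.1 ± 3.43 CPM (-0.20, adjusted p = 0.405). Timp1, an inhibitor that is induced in fibrotic hearts, was at 0.981, 3.49, 1.71 and 1.96 CPM in WT and 0.327, 1.24, 1.23 and 1.8 CPM in TAZG197V (-0.65, adjusted p = 0.261). Timp3, which is bound to the matrix, was at 159 ± 47.7 and 131 ± 14 CPM (-0.14, adjusted p = 0.154).

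**Figure D3:**
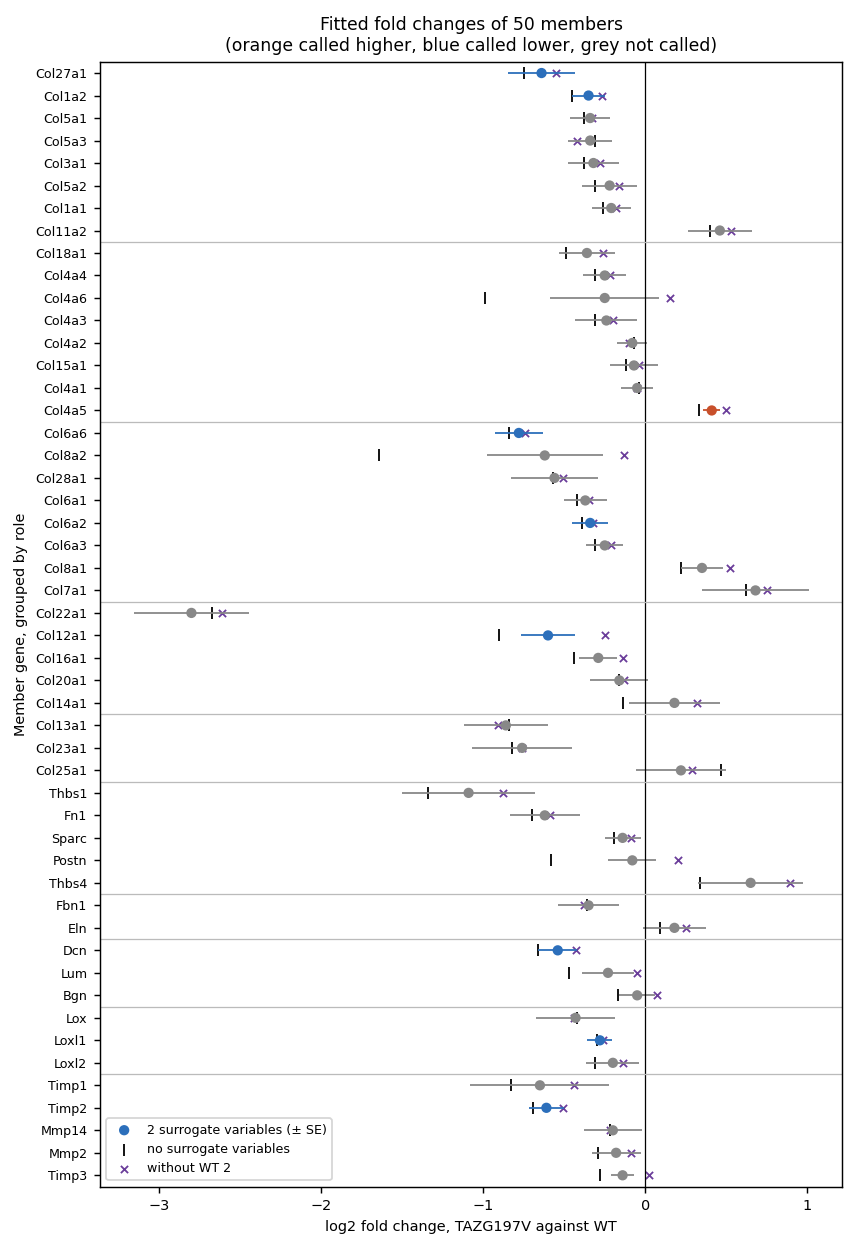
Log2 fold change of each member in TAZG197V against WT (points with SE bars, orange called higher, blue called lower, grey not called), with the value without surrogate variables (black ticks) and without WT 2 (crosses). Of the points, 42 of 50 lie below 0, and the 3 estimates part most for Col8a2, Col4a6, Col12a1 and Postn.

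Upstream windows of the members were searched for promoter motifs. A promoter window of RefSeq (GRCm38.p6) was found for 35 of 50 members, in 38 windows of 250 bases before a RefSeq start. Of the 9 called members 6 had one, and Col12a1, Loxl1 and Dcn had none. The GC box GGGCGG, on either strand, was present in 25 of these 38 windows (65.8%) and in 32.7% of all 32851 windows. The full set of windows was not limited to the genes tested here, so it is not a matched background for the members. The CCAAT box was present in 31.6% of member windows and in 33.8% of all, and TATAAA in 10.5% and 12.4%. A match describes letters in a window and not a used site. Stretches are shown for 2 members called lower, Col6a6, which passed in all 17 alternative fits set out above, and Col1a2, a chain of the main fibrillar collagen. The RefSeq start of Col6a6 lies 75 bases inside the GENCODE gene, and that of Col1a2 lies 804 bases inside it, behind the first exon of a longer GENCODE transcript. Bases in GENCODE exons were left out, which left chr9:105828161-105828335 (Col6a6, minus strand) and chr6:4505370-4505492 (Col1a2, plus strand). The window of Timp2 is not shown, since 203 of its 250 bases lie in GENCODE exons. Capitals mark the GC boxes.
Col6a6: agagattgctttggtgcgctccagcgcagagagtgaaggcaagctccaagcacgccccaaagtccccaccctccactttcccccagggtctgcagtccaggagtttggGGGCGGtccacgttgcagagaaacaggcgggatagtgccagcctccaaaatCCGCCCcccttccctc
Col1a2: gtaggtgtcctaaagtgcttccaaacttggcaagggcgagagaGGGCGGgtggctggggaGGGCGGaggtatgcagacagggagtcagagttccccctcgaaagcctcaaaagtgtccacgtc
Both stretches hold 2 GC boxes and no CCAAT box.

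The microRNAs of the miR-29 family are known to repress many collagen transcripts through sites in their 3′ untranslated regions (UTRs). Mature miRNAs were not measured here. The 3 family members share their seed, bases 2 to 8, which is given in capitals in the RefSeq sequences.
miR-29a-3p: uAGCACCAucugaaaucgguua
miR-29b-3p: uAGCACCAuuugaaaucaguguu
miR-29c-3p: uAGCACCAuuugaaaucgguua
The complement of this seed, TGGTGCT, was searched in the annotated 3′ UTR of 1 transcript per gene. It occurred in 24 of 50 members (48.0%), and in 14.0% of the 13323 other coding genes tested, where the median UTR was 965 bases in members and 999 bases in the others. Among collagen genes 19 of 32 held it. Of the members called lower 2 of 8 held it (Col27a1 and Col6a2), and of the members not called 21 of 41. Col4a5, the member called higher, held 3. The median log2 fold change was -0.24 in members with a site and -0.36 in members without.

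Sites of these 3 members and of Col3a1 are shown with 11 bases on each side and the seed match in capitals. They lie at chrX:141688242-141688270, chrX:141688523-141688551 and chrX:141688946-141688974 (Col4a5), chr4:63333909-63333937 (Col27a1), chr10:76596160-76596188 (Col6a2) and chr1:45348971-45348999 (Col3a1), all in GRCm38, with Col6a2 on the minus strand and the others on the plus strand.
Col4a5 site 1: gctcccaccaaTGGTGCTaatatcctcta
Col4a5 site 2: attctttttcaTGGTGCTactaatcctaa
Col4a5 site 3: tcttattattcTGGTGCTatgcaagaatt
Col27a1: tgtgaaatcgcTGGTGCTcacaattgtct
Col6a2: catcccatctgTGGTGCTaataggaccct
Col3a1: aaatgtctcaaTGGTGCTataataaataa

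Ratios of chains within a library, which do not depend on scaling, were compared for 8 pairs. None passed, and with 70 arrangements of 8 libraries the smallest p possible is 0.0286, or 0.229 after adjustment over 8 ratios when a single ratio reaches it, so that no single ratio could pass by itself. Col1a1 over Col1a2 was 0.643, 0.6, 0.683 and 0.727 in WT and 0.734, 0.756, 0.78 and 0.709 in TAZG197V (log2 difference 0.17, exact permutation p = 0.0571, adjusted over 8 ratios 0.229, two-sided). Only TAZG197V 4 fell below the highest WT ratio. Col3a1 over Col1a1 differed by -0.13 on the log2 scale (exact permutation p = 0.0571, adjusted 0.229). Col4a1 over Col4a2 was between 1.33 and 1.43 in all 8 libraries (log2 difference 0.03, exact permutation p = 0.314). Timp2 over Mmp2 was 1.98, 2.25, 2 and 2.89 in WT and 1.77, 1.45, 1.37 and 2.31 in TAZG197V (-0.41, exact permutation p = 0.143, adjusted 0.381).

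Other genes of the matrix were taken from 5 lists, whose counts stand beside 18.5% of all genes called higher and 15.1% called lower. Of 25 enzymes and chaperones of collagen synthesis tested, 5 were called higher and 7 lower, with a median of -0.14. P3h2, a prolyl 3-hydroxylase, rose from 3.6 ± 0.619 to 9.74 ± 2.6 CPM (log2 fold change 1.44, adjusted p = 0.00198), and 28.4% of its exon bases overlap another gene. Fkbp10, a collagen chaperone, fell from 18.2 ± 3.46 to 8.33 ± 0.69 CPM (-1.09, adjusted p = 0.00062), and P3h4, which acts in collagen lysine hydroxylation, from 30.8 ± 3.23 to 15.1 ± 0.813 CPM (-1.03, adjusted p = 8.7e-05). Adamts3, a procollagen N-propeptidase, was called at -0.59 (adjusted p = 0.0225) but not without WT 1, WT 2, TAZG197V 1, TAZG197V 2 or TAZG197V 3 (0.0933, 0.0555, 0.0523, 0.101 and 0.0761). Named after their values were seen, Serpinh1, the collagen chaperone HSP47, rose from 222 ± 28.1 to 294 ± 32.3 CPM (0.40, adjusted p = 0.00322), and P4hb, a subunit of prolyl 4-hydroxylase, from 232 ± 9.93 to 306 ± 14.8 CPM (0.41, adjusted p = 0.000824).

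Laminins and other basement membrane genes had 8 called lower and 2 higher of 14 tested (15.1% and 18.5% of all genes), with a median of -0.33. Lama5, a laminin alpha chain, fell from 184 ± 28 to 67 ± 5.47 CPM (-1.46, adjusted p = 6.3e-05), and Lama3 from 5.15 ± 0.671 to 3.36 ± 0.18 CPM (-0.62, adjusted p = 0.0091). Nidogen-1 (Nid1), which ties laminin to type IV collagen, fell from 175 ± 12 to 129 ± 23.2 CPM (-0.44, adjusted p = 0.0175), a call lost without TAZG197V 1 (0.0602) or TAZG197V 2 (0.0584). The type IV chains Col4a1 and Col4a2, which share their basement membrane, were fitted at -0.05 and -0.08, and no test compared the lists.

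Of 12 collagen and fibronectin receptors, 1 was called higher and 2 lower, with a median of -0.15. Itga1, the alpha chain of a collagen-binding integrin, fell from 80.1 ± 7.01 to 58.3 ± 5.16 CPM (-0.47, adjusted p = 0.00315), and Itgb5 rose from 103 ± 3.26 to 128 ± 3.64 CPM (0.32, adjusted p = 0.0021). Itgb3 was called lower at -1.91 (adjusted p = 0.0042), where its level in WT 4 was 32.9 CPM against 4.09 to 6.1 in the other WT libraries and 2.68 ± 0.496 in TAZG197V. Its log2 fold change was -0.94 without WT 4 (adjusted p = 0.00757) and -1.07 without TAZG197V 4 (adjusted p = 0.00451), or -0.97 and -1.29 with 2 surrogate variables (adjusted p of 0.0028 and 0.00141).

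Of 25 other matricellular and microfibril genes, 11 were called lower and 1 higher, with a median of -0.29. Efemp1 (fibulin-3) fell from 12.6 ± 3.88 to 4.88 ± 1.08 CPM (-1.26, adjusted p = 0.000858), Ltbp1, which anchors latent TGF-beta in the matrix, from 74.1 ± 10.3 to 33.9 ± 3.17 CPM (-1.11, adjusted p = 6.5e-05), and Fbln1 from 93.8 ± 21.9 to 48.5 ± 9.75 CPM (-0.88, adjusted p = 0.00109). Mfap4 was called higher at 0.98 (adjusted p = 0.00421), a call that was absent without surrogate variables (adjusted p = 0.631), with 1 surrogate variable (0.40, adjusted p = 0.564), and without WT 4 (0.02, adjusted p = 0.969) or TAZG197V 4 (0.11, adjusted p = 0.854). With 2 surrogate variables Mfap4 was not called without either library (0.36 and 0.38, adjusted p of 0.206 and 0.432), and was called without both (0.77, adjusted p = 0.0498). Of 20 other proteases and inhibitors, 7 were called lower and 1 higher, with a median of -0.15. Mmp15, a membrane-type metalloproteinase, fell from 121 ± 11.6 to 64.9 ± 5.79 CPM (-0.93, adjusted p = 1.1e-05). Mmp9 (-2.07, adjusted p = 0.0334), Mmp3 (-0.87, adjusted p = 0.00593) and Ctsk (0.83, adjusted p = 0.00783) were called with 2 surrogate variables, and not with 1 (adjusted p of 0.1, 0.052 and 0.142) or without them (0.0669, 0.0607 and 0.192). Mmp9 was at 10.4 CPM in WT 4 against 0.505 to 1.45 in the other WT libraries. Its log2 fold change was -0.81 without WT 4 (adjusted p = 0.154) and -1.03 without TAZG197V 4 (adjusted p = 0.0867), or -0.77 (adjusted p = 0.184) and -1.13 (adjusted p = 0.0439) with 2 surrogate variables, and its call was also lost without WT 1, TAZG197V 1 or TAZG197V 2. Mmp3 was not called without WT 2 (-0.58, adjusted p = 0.0571) or TAZG197V 2 (-0.63, adjusted p = 0.0532), and its log2 fold change was -1.53 without WT 4 and -1.63 without TAZG197V 4, or -1.18 and -1.46 with 2 surrogate variables. Ctsk was not called without WT 4 (0.43, adjusted p = 0.29) or TAZG197V 4 (0.56, adjusted p = 0.175), and was called without either when 2 surrogate variables were kept (0.62 and 0.72, adjusted p of 0.0268 and 0.042).

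**Figure D4:**
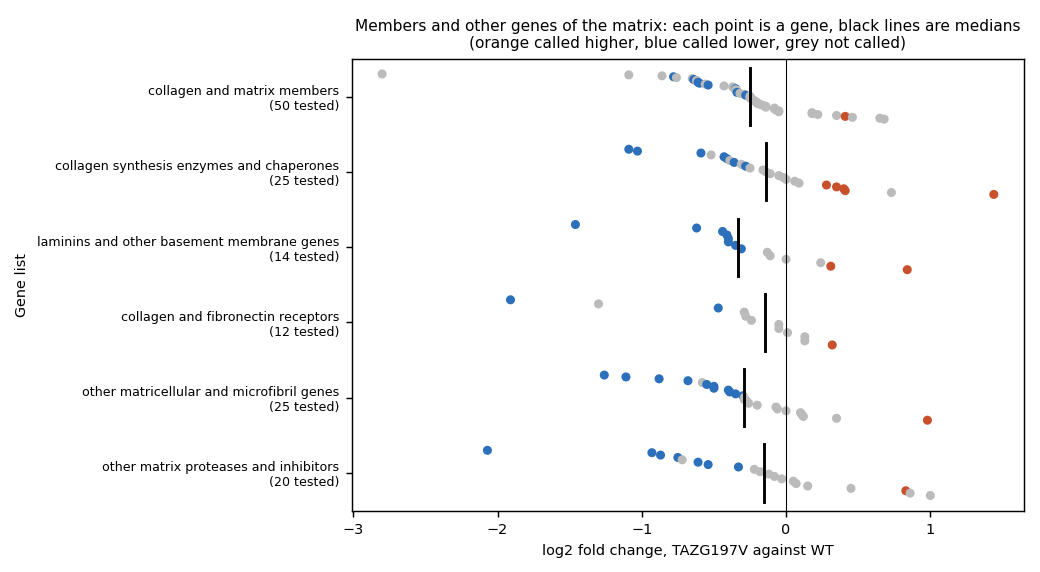
Log2 fold change of each tested gene (points) of the 50 members and of 5 lists of other matrix genes, with black lines at the median of each list. Every median lies below 0, from -0.33 in laminins and other basement membrane genes to -0.14 in synthesis enzymes and chaperones, and called genes lie on both sides in every list.

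In bulk tissue, fewer cells of a type and less RNA per cell cannot be told apart, so markers of the cells that make matrix were read beside the members. Of 8 fibroblast markers, 6 were called lower and 0 higher, against 15.1% and 18.5% of all genes, with a median of -0.55. Lama2 among them is also in the laminin list. Their summed level was 1710.4, 2546, 1953 and 1985 CPM in WT and 1105, 1244, 1473 and 1380.1 CPM in TAZG197V. Every TAZG197V library lay below every WT library, in both lanes. Gsn, the most abundant of these markers, made up most of the sum, with 1308 to 2016 CPM in WT and 814 to 1135 CPM in TAZG197V. Fibroblast markers were thus lower in TAZG197V along with Dcn and Col1a2, whereas Col1a1, Col3a1, Col5a2, Lum and Postn were not called. TAZG197V 3 and WT 2 had the highest sums of fibroblast markers in their genotypes, as they had for fibrillar collagens. The part of this in the members' values was not tested.

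Other cell types were read in the same way. Of 6 pericyte markers 3 were called lower (963 to 1187 CPM in TAZG197V and 1163 to 1377 in WT, summed), and of 7 endothelial markers 2 were called lower (977 to 1266 and 1144 to 1588). Of 7 macrophage markers none was called (278 to 449.6 and 298 to 395). Of 5 myofibroblast and smooth muscle markers tested, 3 were called lower and 1 higher, Acta2, so that their sum ran from 229 to 424 CPM in TAZG197V and from 136 to 280.2 in WT. Of 8 cardiomyocyte markers 3 were called lower and 1 higher (50137 to 54053 and 58067 to 66675), and their sums, like those of the fibroblast markers, did not overlap. The atrial markers had 3 of 5 called lower, with sums of 29.4 to 132 CPM in TAZG197V and 16.5 to 1075 in WT, and the valve and cartilage-like markers 0 of 5 (17.1 to 43.1 and 21.8 to 93.5). Mesothelial markers had 1 of 6 called lower, the adipocyte markers 1 of 1 tested, red cell markers 6 of 6, and peripheral nerve markers 1 of 3, while of 4 brain markers 2 were called lower and 1 higher. All 6 red cell calls were lost without WT 4, among others. Hbb-bs had 33024 CPM there against 211 to 669 in the other WT libraries, its log2 fold change of -3.48 ran from -4.80 to -0.85 when 1 library was left out, and it passed in 2 of those 8 fits. The adipocyte call, Cfd, was highest in WT 2 (10.1 CPM against 0.117 to 1.52 in the other WT libraries), ran from -4.68 to -0.09, and was lost without WT 2 among others. Without WT 2 the atrial calls of Myl7 (-3.65 to -1.64, adjusted p = 0.425) and Myl4 (-1.91 to -0.51, adjusted p = 0.622) were lost and that of Sbk2 held. The same omission ended the calls of Tagln (-0.74 to -0.36, adjusted p = 0.322) and Cnn1 (-0.97 to -0.36, adjusted p = 0.198), which were also absent without surrogate variables (0.092 and 0.114), so that of the smooth muscle markers called lower Myh11 held in both fits. Without surrogate variables the endothelial markers Cdh5 (0.063) and Kdr (0.198) lost their calls, while another, Pecam1, was called lower there (-0.32, adjusted p = 0.0476). Myh7, the cardiomyocyte marker called higher, also lost its call in that fit (0.212). Of the brain markers, Slc1a2 (called higher) and Camk2a (called lower) were not called without surrogate variables either (0.554 and 0.206). Slc1a2 also lost its call without WT 1, WT 2 or TAZG197V 4, and ran from 0.36 to 1.80 when 1 library was left out. No marker was at 0 in all libraries. The part of atrial and valve tissue in the high matrix levels of WT 2 was not tested. Without that library, Timp2, Col6a6, Dcn and Loxl1 were still called lower (adjusted p of 0.014, 0.00861, 0.0344 and 0.0288).

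**Figure D5:**
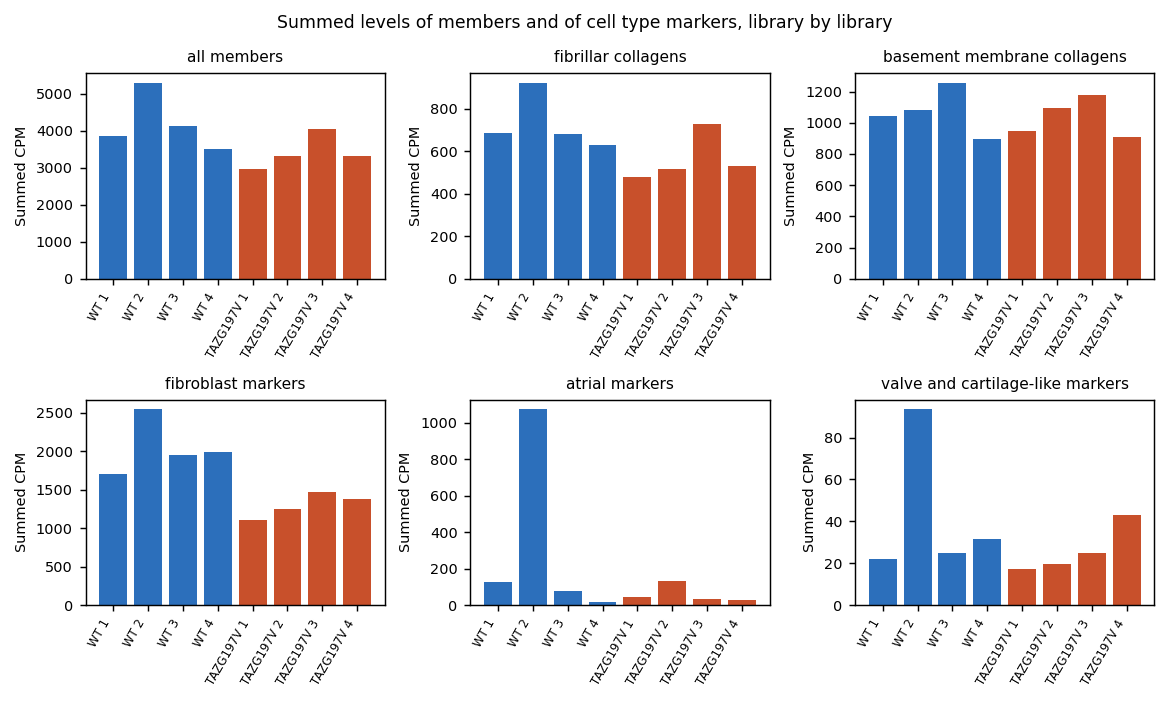
Summed CPM of all 50 members, fibrillar collagens and basement membrane collagens (top) and of fibroblast, atrial and valve and cartilage-like markers (bottom) in each library, WT in blue and TAZG197V in orange. Fibroblast markers part the genotypes fully, fibrillar collagens do so except for TAZG197V 3, basement membrane collagens overlap, and WT 2 stands out in atrial and valve markers.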

How the data were processed

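RNA was sequenced from 8 hearts, 4 WT and 4 TAZG197V. As the labels and methods state, the authors split reads by sample with bcl2fastq 2.20.0, checked them with FastQC 0.11.9, aligned them to mm10 with STAR 2.7.3a and counted reads over exons with featureCounts (Subread 2.0.0). The deposited values are raw counts per Ensembl gene. The annotation release and the strand setting are not given in the sources used here. Spike-in rows held 0 counts and were left out. Depths of 23055689 to 36301031 counts make the spread between mice, not counting error, the limit for most members. Counting intervals would cover counting error only.

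Symbols, positions and exon lengths came from GENCODE M21 (55230 of the gene IDs matched, 241 did not), and sequences from RefSeq (GRCm38.p6) and, for 3′ UTRs, GENCODE M21 transcripts. For each gene the transcript with the longest coding sequence was used.

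Counts were tested on the whole table in R 4.3.3 with edgeR 4.0.16 (filterByExpr, TMM, quasi-likelihood F-test, two-sided, Benjamini-Hochberg adjustment over 15084 genes), with 2 surrogate variables from svaseq (sva 3.50.0, seed 1) as covariates, as the study corrected for unwanted variation. A call needed an adjusted p under 0.05, a log2 fold change beyond 0.20 and a mean scaled count of at least 50. All adjusted p-values of genes come from this edgeR test. SEs of log2 fold changes were derived from the F statistic. Ratios were tested by exact permutation over 70 arrangements. The fit was tested on simulated data.

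The members, lists and markers were chosen with earlier results of these data known. Named were every called member, a fixed set of 32 members whatever their result, and up to 4 called genes per list of other matrix genes, largest change first. Other members are named where they passed the adjusted p alone, share a type IV gene pair, or were singled out after their values were seen (Col13a1, Col22a1, Col4a3, Col4a4, Col4a6). Within-genotype library pairs differed by a chi-square of at least 10.2 per gene, far above sampling noise. Alternatives were DESeq2 1.42.0, DESeq2 size factors, no count filter, other covariates, a replicate block, no mitochondrial genes, other thresholds, and omission of each library or of both number 4 libraries. Surrogate variables were estimated again for each omission. Calls without the mean count minimum, and omission of number 4 libraries with 2 surrogate variables kept, were added after seeing the data.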

Additional observations from a re-analysis of the deposited data

Results flagged for a closer look

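In each genotype, the highest and the lowest library were compared with the rest for every member, chain ratio and marker sum and for 4 summed levels of members (all members, all collagens, fibrillar and basement membrane collagens), by the gap to the nearest library divided by the range of the 4. A value above Dixon's critical value at the 95% level marks a library that lies far from the others. Of 150 such sets 24 exceeded it, where chance alone gives about 1 in 20, or 7.5, and 13 of the 100 sets of members did.

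WT 2 lay far above the other WT libraries in 7 members. These were Col1a1 (gap 0.961, 133 CPM against 98.8 to 100.2), Col18a1 (0.955), Col12a1 (0.903), Dcn (0.894, 920.2 CPM against 536 to 577), Col14a1 (0.885), Postn (0.867, 116 CPM against 27.2 to 39) and Col8a2 (0.862). WT 2 was also apart in the ratio of Col4a1 to Col4a2 (0.866) and in the atrial (0.897), valve and cartilage-like (0.866) and adipocyte (0.848) markers.

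TAZG197V 3 lay far above its genotype in Col5a3 (0.948, 43 CPM against 28.1 to 28.8), Col6a2 (0.867, 99.5 CPM against 69.3 to 73.3) and Fbn1 (0.848, 125 CPM against 67.8 to 76.5). TAZG197V 4 was low in Col4a5 (0.93, 64.8 CPM against 72.3 to 72.9) and high in Col12a1 (0.946), Col25a1 (0.92), adipocyte markers (0.967) and brain markers (0.971). Single libraries were also apart in endothelial markers (WT 3 high, 0.832), atrial markers (TAZG197V 2 high, 0.867), mesothelial and epicardial markers (TAZG197V 1 low, 0.834), red cell markers (WT 4 high, 0.987) and brain markers (WT 4 high, 0.91).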

How the results depend on the processing

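The median log2 fold change of the members stayed below 0 in every alternative fit, from -0.42 without WT 4 to -0.15 without TAZG197V 1. Over all genes, the fewest calls at the main threshold came without TAZG197V 2, 1550 lower and 2125 higher of 15251. The most came without WT 2, 2406 lower and 2836 higher of 15136. Omissions of number 4 libraries with 2 surrogate variables kept were left out of these 2 limits. The count of members called higher, 1 in the report, was 0 without surrogate variables, with 1 surrogate variable or at a fold change of at least 1.5, and 2 with DESeq2 or with no low-count filter. It ran from 0 (without WT 4 or TAZG197V 4, where 1 surrogate variable was fitted) to 3 (without WT 2) when 1 library was left out. With 2 surrogate variables kept, which was chosen after seeing the data, it was 2 without WT 4, 1 without TAZG197V 4 and 2 without both. The count called lower, 8 in the report, was 5 without surrogate variables, 4 with sequencing lane as covariate, 4 at a fold change of at least 1.5, 14 without both number 4 libraries with 1 surrogate variable and 2 with 2, and 3 (without TAZG197V 1) to 19 (without TAZG197V 3) with 1 library left out. With DESeq2 it was 12. With a replicate block it was 5, and 1 was called higher. The block took the calls from Col1a2, Col6a2, Col12a1, Col27a1 and Dcn (adjusted p of 0.0908, 0.0618, 0.246, 0.107 and 0.0517). Deviations of same-numbered libraries correlated at 0.277, 0.0436, 0.28 and 0.416, and WT 3 correlated best with TAZG197V 2 (0.317), so the numbers were not taken to pair the mice. Without both number 4 libraries (1 surrogate variable), 5 receptors were called lower and 0 other matricellular genes higher. Of members near 0, fitted values changed side when 1 library was left out, within -0.10 to 0.06 for Col4a1, -0.13 to 0.03 for Col4a2, -0.20 to 0.04 for Col15a1, -0.82 to 0.20 for Postn, -0.45 to 0.02 for Timp3, -1.51 to 0.15 for Col4a6, -0.05 to 0.32 for Eln (-0.04 without both number 4 libraries) and -0.29 to 0.07 for Bgn. Those of Col14a1 (-0.27 to 0.42) and Col25a1 (-0.17 to 0.48) changed side as well. The log2 differences of Col5a1/Col5a2 and Col6a1/Col6a2 ran from -0.16 to 0.00 and from -0.07 to 0.01, and that of Col5a1/Col5a2 was 0.00 without both number 4 libraries. The cause was not tested. Timp2 was called in each fit, and Col6a6 in each but that without both number 4 libraries and with 2 surrogate variables. Depth limits Col22a1 and Col13a1, whose mean scaled counts were under 50.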
